A study of Mus musculus with 15 samples.

Results

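The genes described here encode enzymes that make foreign compounds and metabolites more soluble. They were all genes of the count files whose symbol belongs to the glutathione S-transferase (Gst), UDP-glucuronosyltransferase (Ugt), sulfotransferase (Sult) or carboxylesterase (Ces) families, without the entries marked as pseudogenes by "-ps". This gave 86 of 78298 genes, with 24 Gst, 22 Ugt, 21 Sult and 19 Ces genes. The small intestinal epithelium is the first barrier for swallowed drugs, and its absorptive enterocytes carry a large share of these enzymes. Glutathione S-transferases, UDP-glucuronosyltransferases and sulfotransferases join glutathione, glucuronic acid or sulfate to their substrates, whereas carboxylesterases cut ester bonds of drugs and of acylglycerols. The conjugates leave the cell through ABC transporters, and several nuclear receptors and intestinal transcription factors are known to control genes of these families.

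Expression was measured by mRNA sequencing of small intestinal organoids, cultures grown in a gel from crypts of adult female wild-type mice bred with C57BL/6J, in 15 libraries of 5 conditions with 3 biological replicates each. All lines had been transduced with lentivirus and selected with puromycin, and all transgenes were driven by the L30 promoter, a weak promoter active in all cells. The study used the lines to follow what prolonged overexpression of SOX9, a transcription factor of intestinal stem and Paneth cells, does to the epithelium. Organoids of the SOX9 lines first budded like ordinary organoids and later in culture became round spheroids. Halo-NLS organoids carried V5-Halo-NLS, a nuclear HaloTag without SOX9. SOX9-mEGFP_budding and SOX9-Halo_budding organoids carried SOX9 fused to mEGFP-V5 or to Halo-V5. SOX9-mEGFP_spheroid carried in addition H2B-mScarletI with neomycin resistance, and SOX9-Halo_spheroid carried in addition H2B-mEGFP with zeocin resistance. Spheroids were also at later passages, so that morphology, time in culture and the additional transgene cannot be told apart. Each condition came from a single stable line, and the p-values below therefore measure spread between cultures of a line and not between lines. In the fit of all 15 libraries, this spread was estimated over the 5 conditions together, including those outside a comparison.

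The libraries held 28062722 to 40559766 counts on genes, with a median of 33491297. Levels are given as CPM, the counts divided by library size and scaled between libraries with TMM factors. Sox9, counted together with the mouse Sox9 sequence of the transgene, reached 15.3, 22.9 and 9.10 CPM in Halo-NLS, 339, 330.3 and 193 CPM in SOX9-mEGFP_budding, 39.8, 314 and 204 CPM in SOX9-Halo_budding, 260.0, 504 and 705 CPM in SOX9-mEGFP_spheroid and 314, 442 and 441 CPM in SOX9-Halo_spheroid. Every library of the SOX9 lines lay above the Halo-NLS libraries, and SOX9-Halo_budding replicate 1 was the lowest of them. The organoids expressed epithelial markers (Epcam, Cdh1, Krt8, Krt18 and Cldn7), whose summed level ran from 4036 to 9206 CPM over the libraries. Several libraries stood apart from the others of their condition. SOX9-mEGFP_budding replicate 3 had a summed level of 10 enterocyte markers of 2281 CPM against 9875 and 7433 CPM, and a summed level of 4 crypt base stem cell markers of 926 CPM against 149 and 234 CPM. The summed level of 6 goblet markers was 8242 CPM in Halo-NLS replicate 2 against 3685 and 2270 CPM, and 8223 CPM in SOX9-Halo_budding replicate 2 against 2172 and 1663 CPM. Halo-NLS replicate 3 had counts on 40375 genes against 29003 and 24214, and the summed level of the 86 genes was 11827 CPM there against 20182 and 19796 CPM.

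Of the 86 genes, 57 had enough counts to be tested, namely 23 Gst, 13 Ugt, 7 Sult and 14 Ces genes. The other 29 had at most 69 counts over the 15 libraries together, and 7 of them had none. They were Gstt4, 9 Ugt genes (Ugt1a2, Ugt1a5, Ugt1a10, Ugt2a1, Ugt2a2, Ugt2b37, Ugt2b38, Ugt3a1 and Ugt3a2), 14 Sult genes including all 8 Sult2a genes and the estrogen sulfotransferase Sult1e1, and Ces1a, Ces1h, Ces3a, Ces3b and Ces4a. For several members, many reads would match more than 1 gene. The Ugt1a genes share their 3′ exons, so that only 11.6% to 43.4% of the exon length of each belonged to it alone. For Gsta1 and Gsta13, 69.3% and 76.6% of all 150-base windows of their transcripts also occurred in another gene. The share was 17.1% for Gstp1, 36.9% for Gstp2 and 35.0% for Ces2c. Since the authors counted uniquely aligned pairs on 1 gene, such reads are missing, and the levels of these genes are uncertain and may be too low.

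In budding organoids, all 4 families were expressed, and in spheroids of both SOX9 lines the carboxylesterases were at a fraction of that level. The summed level of the Ces family was 4319 ± 687 CPM (mean ± SD, n = 3) in Halo-NLS, 2648 ± 1456 CPM in SOX9-mEGFP_budding and 3549 ± 538 CPM in SOX9-Halo_budding, but 600.0 ± 150.3 CPM in SOX9-mEGFP_spheroid and 384 ± 21.3 CPM in SOX9-Halo_spheroid. For the Ugt family, the sums were 1281 ± 673, 1263 ± 444 and 1199 ± 218 CPM in the same 3 budding conditions, 603 ± 166 CPM in SOX9-mEGFP_spheroid and 21.1 ± 8.18 CPM in SOX9-Halo_spheroid. The Sult family summed to 461 ± 163, 437 ± 246 and 379 ± 99.3 CPM in budding organoids, to 389.6 ± 114 CPM in SOX9-mEGFP_spheroid and to 106 ± 46.8 CPM in SOX9-Halo_spheroid. The Gst family summed to 11207 ± 3440 CPM in Halo-NLS, 5203 ± 1381 and 5389 ± 902.5 CPM in the budding SOX9 lines, and 3235 ± 418 and 3485 ± 742 CPM in the spheroids of the SOX9-mEGFP and the SOX9-Halo line. The Gst sums of the spheroids of the 2 lines overlapped, whereas the Ugt and Sult sums were far lower in SOX9-Halo_spheroid than in SOX9-mEGFP_spheroid. In SOX9-Halo_spheroid, Sult1c2 made up 94.05% of the Sult sum and Ces2g 83.29% of the Ces sum, whereas the largest contributor to the Gst sum, Gsto1, made up 36.98%.

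**Figure D1:**
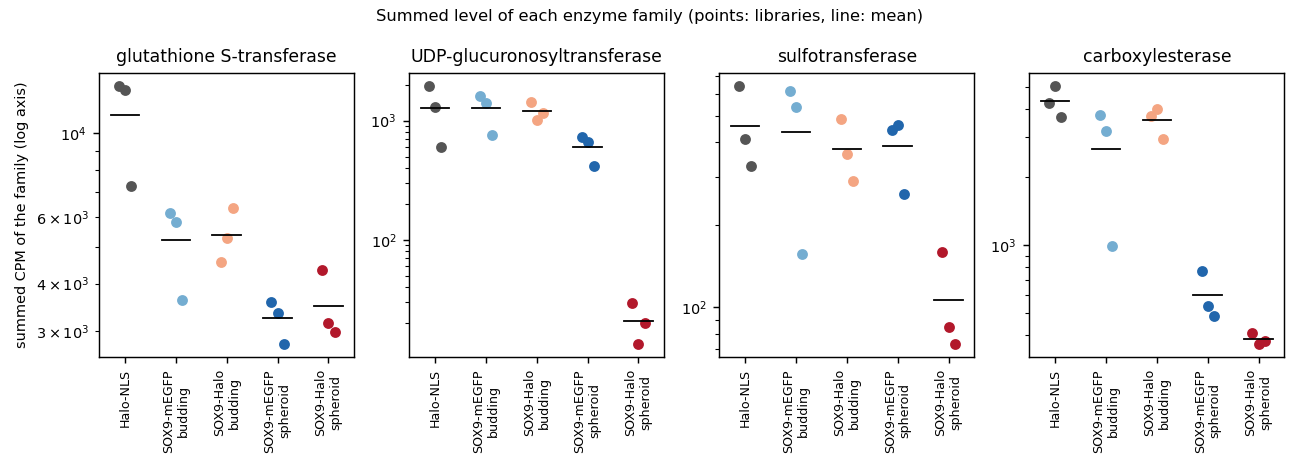
Summed CPM of the members of each family (vertical axis, logarithmic) in the 15 libraries of the 5 conditions (points) with the mean of each condition (line). The Ugt sum lies at 21.1 CPM on average in SOX9-Halo_spheroid against 603 CPM in SOX9-mEGFP_spheroid, while the Gst sums of both are near each other at 3485 and 3235 CPM.

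Whether single genes differed was tested with edgeR's quasi-likelihood test on all 17560 tested genes. A call needed a Benjamini-Hochberg adjusted p no higher than 0.01, a 2-fold or larger change, and normalized counts averaging 10 or more. Between SOX9-Halo_spheroid and SOX9-Halo_budding, 35 of the 57 members were called lower (61.4%) and 5 higher (8.77%), whereas 14.7% of all tested genes were called lower and 10.5% higher. The median log2 fold change of the members was -3.22 (-2.68 with members at the limit of counting set to their bound) and that of all genes -0.0764. Between SOX9-mEGFP_spheroid and SOX9-mEGFP_budding, 21 were called lower (36.8%) and 3 higher (5.26%), against 7.88% and 8.55% of all tested genes, with a median of -1.2 for the members and -0.0398 for all genes. By family, 11 of 23 Gst, 9 of 13 Ugt, 5 of 7 Sult and 10 of 14 Ces genes were called lower in the SOX9-Halo line, and 5, 6, 1 and 9 in the SOX9-mEGFP line. Without SOX9-mEGFP_budding replicate 3, 28 members were called lower and 2 higher in the SOX9-mEGFP line, against 8.11% and 7.51% of all genes tested in that fit. In bulk RNA, fewer cells of a type and less RNA per cell cannot be told apart.

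**Figure D2:**
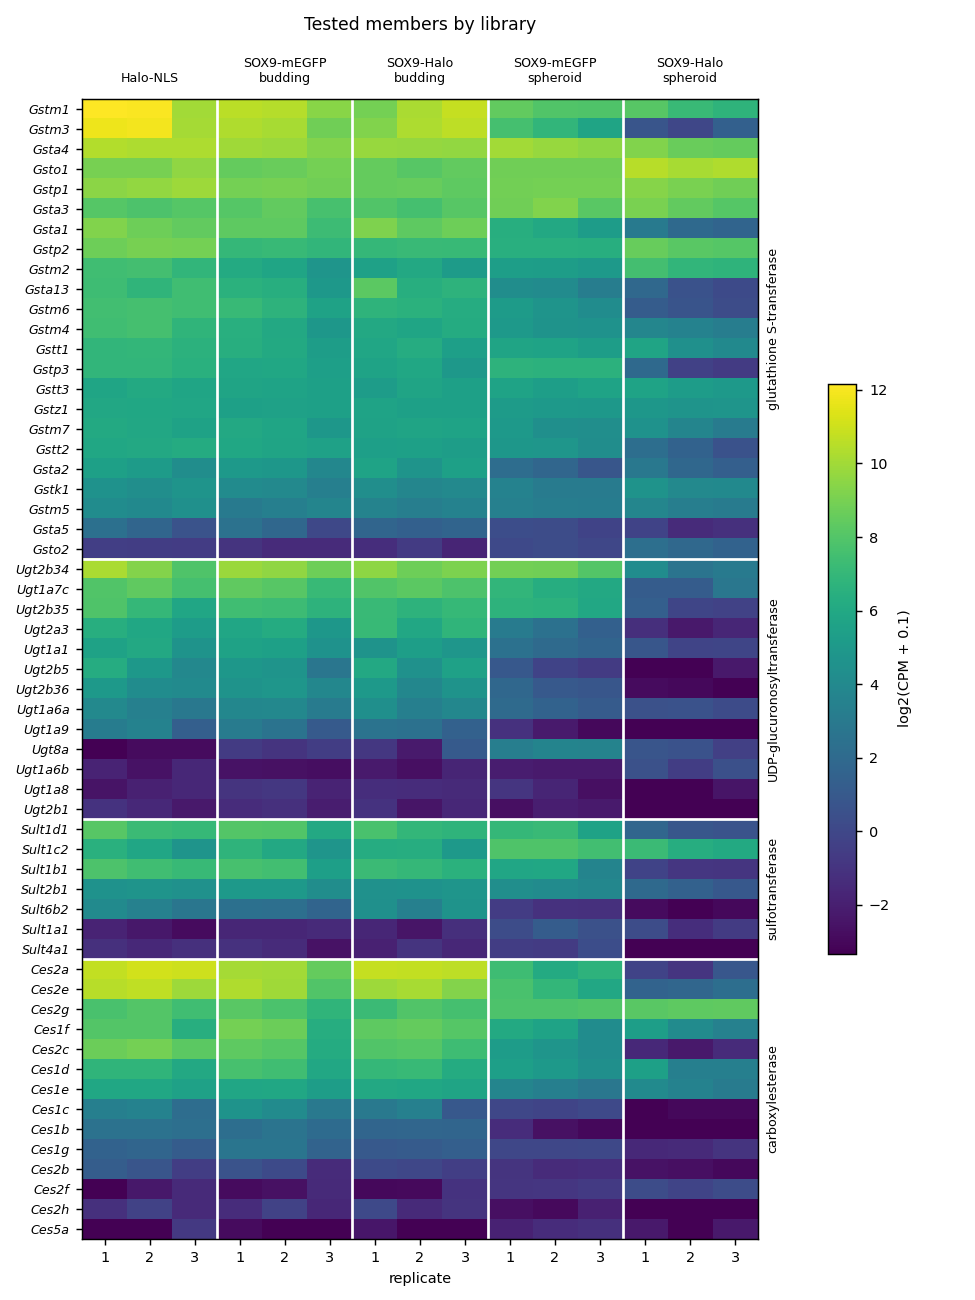
Level of the 57 tested members, as log2(CPM + 0.1) by colour, in each of the 15 libraries (columns, by condition and replicate), with the members grouped by family and ordered by mean CPM. In the 3 SOX9-Halo_spheroid columns most Ugt, Sult and Ces rows are dark, with Sult1c2 and Ces2g as bright exceptions.

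The carboxylesterases lie in tandem on chromosome 8, with Ces1 and Ces5a in one cluster and Ces2, Ces3 and Ces4a in another. Ces2a (chr8:105460630-105468266 of GRCm39), an esterase acting on acylglycerols and drug esters, belongs to the latter. Its level was 1718, 2200 and 2007 CPM in Halo-NLS, 1082, 1054 and 366 CPM in SOX9-mEGFP_budding, 1802, 1738 and 1563 CPM in SOX9-Halo_budding, 165, 69.8 and 104 CPM in SOX9-mEGFP_spheroid and 0.776, 0.423 and 1.77 CPM in SOX9-Halo_spheroid. All 3 SOX9-Halo_spheroid libraries lay below 2 CPM and all 3 SOX9-mEGFP_spheroid libraries below every budding library, of which SOX9-mEGFP_budding replicate 3 was the lowest. The log2 fold change from budding to spheroid was -10.73 ± 0.66, adjusted p = 1.3e-08 (edgeR's quasi-likelihood test) in the SOX9-Halo line and -2.88 ± 0.46, adjusted p = 0.00023 in the SOX9-mEGFP line (± SE). Its neighbours Ces2e (chr8:105652848-105661304) and Ces2c (chr8:105573700-105581115) were also called lower in both lines. The level of Ces2e was 1458, 1633 and 975 CPM in Halo-NLS, 1261, 986 and 247 CPM in SOX9-mEGFP_budding, 976, 1138 and 618 CPM in SOX9-Halo_budding, 209, 123 and 62.4 CPM in SOX9-mEGFP_spheroid and 3.00, 3.41 and 4.67 CPM in SOX9-Halo_spheroid. Spheroids and budding organoids did not overlap in either line, though SOX9-mEGFP_budding replicate 3 came close to the highest SOX9-mEGFP_spheroid library. The log2 fold changes of Ces2e were -7.94 and -2.66 in the SOX9-Halo and SOX9-mEGFP lines (adjusted p = 2.4e-07 and 0.0012), and those of Ces2c were -10.08 and -2.98 (adjusted p = 2.3e-08 and 0.00015). In coding sequence, Ces2a was 83.3% identical to Ces2e, 82.6% to Ces2c and 81.6% to Ces2g.

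Within this row of similar genes, Ces2g (chr8:105688346-105696169) was not called lower. Its level was 209, 257 and 169 CPM in Halo-NLS, 298, 221 and 110.3 CPM in SOX9-mEGFP_budding, 149, 252 and 192 CPM in SOX9-Halo_budding, 230.3, 225 and 253 CPM in SOX9-mEGFP_spheroid and 299, 323 and 337 CPM in SOX9-Halo_spheroid. The 3 SOX9-Halo_spheroid libraries were the highest of all 15, and the SOX9-mEGFP_spheroid libraries lay within the range of the budding ones. Neither change was called, with log2 fold changes of 0.69 ± 0.29, adjusted p = 0.073 in the SOX9-Halo line and 0.17 ± 0.29, adjusted p = 0.74 in the SOX9-mEGFP line. The median log2 fold change of the 958 other tested genes of chromosome 8 was 0.426 and -0.0555 in the same comparisons, and 0.331 between SOX9-Halo_spheroid and Halo-NLS. Relative to it, the change of Ces2g in the SOX9-Halo line was 0.27, and the part of the chromosome was not tested. Ces2f, between Ces2e and Ces2g, is named here after its values were seen. It was near 1 CPM in SOX9-Halo_spheroid and was called higher there than in Halo-NLS (3.01 ± 0.85, adjusted p = 0.009). Against SOX9-Halo_budding it was not called (2.83 ± 0.8, adjusted p = 0.01 after rounding). The Ces1 genes, which include the triacylglycerol hydrolase Ces1d and the plasma carboxylesterase Ces1c, were called lower in spheroids of both lines for all 6 tested members (Ces1b to Ces1g). The level of Ces1f was 263, 261 and 83.7 CPM in Halo-NLS, 489, 415 and 81.4 CPM in SOX9-mEGFP_budding, 322, 371 and 276 CPM in SOX9-Halo_budding, 69.2, 50.4 and 18.8 CPM in SOX9-mEGFP_spheroid and 40.8, 17.8 and 11.3 CPM in SOX9-Halo_spheroid. The spheroid libraries of each line lay below its budding libraries, with the lowest budding and the highest spheroid library of the SOX9-mEGFP line near each other at 81.4 and 69.2 CPM. Its log2 fold changes were -3.79 ± 0.7, adjusted p = 0.00044 in the SOX9-Halo line and -2.83 ± 0.67, adjusted p = 0.0047 in the SOX9-mEGFP line, and the latter call was lost when SOX9-mEGFP_budding replicate 1 or 2 or SOX9-mEGFP_spheroid replicate 2 or 3 was left out (log2 fold change from -2.94 to -2.43). Ces1c had at most 3 counts in each SOX9-Halo_spheroid library and was at least 74.2-fold lower there than in SOX9-Halo_budding, taking 3 counts per library as the limit.

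**Figure D3:**
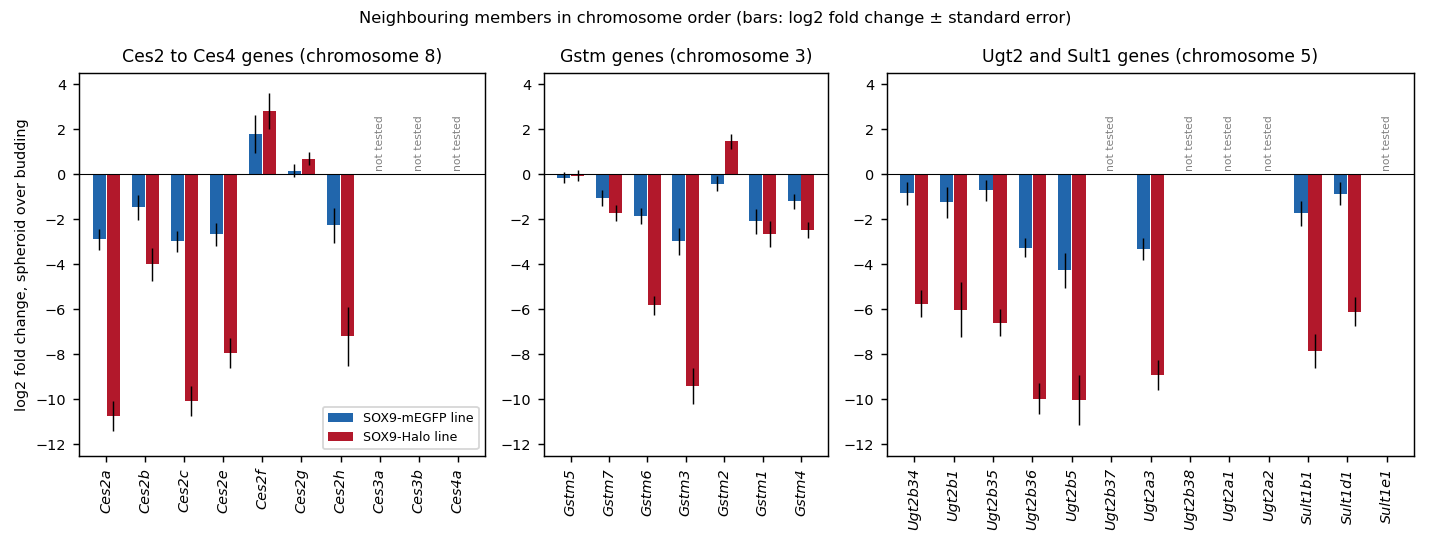
Log2 fold change from budding to spheroid (vertical axis, bars with standard error) of neighbouring members in chromosome order, in the SOX9-mEGFP line (blue) and the SOX9-Halo line (red). Ces2g and Gstm2 stand at 0.69 and 1.48 in the SOX9-Halo line, beside neighbours such as Ces2a at -10.73 and Gstm3 at -9.41, and fitted values of genes with almost no counts in SOX9-Halo_spheroid, such as Ugt2b36, are no bounds.

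Among glutathione S-transferases, the mu class on chromosome 3 carried the highest mean levels of Halo-NLS organoids. In Halo-NLS replicate 3 alone, Gsta4 with 1210 CPM lay above Gstm3 and Gstm1 with 1076 and 1024 CPM, so the ranking of the means rests on the other 2 libraries. Per kilobase of exon, Gstm3 and Gstm1 reached 1609 and 1316 CPM in Halo-NLS, followed by Ces2a with 662, Gstp1 with 513 and Ces2e with 494 CPM per kilobase. The level of Gstm1 (chr3:107919380-107925380) was 4616, 4289 and 1024 CPM in Halo-NLS, 1488, 1375 and 682 CPM in SOX9-mEGFP_budding, 484, 1168 and 1791 CPM in SOX9-Halo_budding, 346, 253 and 236 CPM in SOX9-mEGFP_spheroid and 287, 147 and 109 CPM in SOX9-Halo_spheroid. Halo-NLS replicate 3 was far below the other 2 Halo-NLS libraries, and the spheroid libraries of each line lay below its budding libraries. Its fall was called in the SOX9-Halo line (-2.66 ± 0.57, adjusted p = 0.0016) and just missed the call in the SOX9-mEGFP line (-2.09 ± 0.56, adjusted p = 0.011). The level of Gstm3 (chr3:107871012-107881730) was 3554, 3759 and 1076 CPM in Halo-NLS, 1297, 1109 and 456 CPM in SOX9-mEGFP_budding, 606, 1245 and 1605 CPM in SOX9-Halo_budding, 195, 116 and 52.2 CPM in SOX9-mEGFP_spheroid and 1.59, 0.902 and 2.55 CPM in SOX9-Halo_spheroid. All 3 SOX9-Halo_spheroid libraries were under 3 CPM, and the SOX9-mEGFP_spheroid libraries lay below those of budding organoids. Its coding sequence was 89.4% identical to that of Gstm1. Gstm3 changed by -9.41 ± 0.81, adjusted p = 2.8e-07 in the SOX9-Halo line and by -2.97 ± 0.6, adjusted p = 0.0015 in the SOX9-mEGFP line. Between Gstm3 and Gstm1 on the chromosome lies Gstm2 (chr3:107889004-107893785), which went the other way in the SOX9-Halo line. Its level was 172, 186 and 115 CPM in Halo-NLS, 71.0, 54.7 and 26.5 CPM in SOX9-mEGFP_budding, 46.9, 64.1 and 35.6 CPM in SOX9-Halo_budding, 41.7, 39.1 and 33.3 CPM in SOX9-mEGFP_spheroid and 184, 119.7 and 107 CPM in SOX9-Halo_spheroid. The SOX9-Halo_spheroid libraries lay above all SOX9-Halo_budding libraries and overlapped with Halo-NLS. Gstm2 was higher in SOX9-Halo_spheroid than in SOX9-Halo_budding (1.48 ± 0.34, adjusted p = 0.0023), a call lost without SOX9-Halo_budding replicate 1 or 3 or without SOX9-Halo_spheroid replicate 1 (1.22 to 1.45), and did not pass in the SOX9-mEGFP line (-0.41 ± 0.33, adjusted p = 0.42). Of the remaining mu genes, Gstm4, Gstm6 and Gstm7 were called lower in the SOX9-Halo line (-2.47, -5.82 and -1.73), Gstm6 also in the SOX9-mEGFP line (-1.85), and Gstm5 was not called in either (-0.05 and -0.14).

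The alpha class, on chromosome 9 except for Gsta3 on chromosome 1, conjugates glutathione to products of lipid peroxidation and reduces organic peroxides. The level of Gsta1 (chr9:78137927-78149966) was 616, 425 and 350.3 CPM in Halo-NLS, 316, 317 and 157 CPM in SOX9-mEGFP_budding, 570.3, 321 and 433 CPM in SOX9-Halo_budding, 83.2, 65.5 and 37.2 CPM in SOX9-mEGFP_spheroid and 7.87, 3.89 and 3.14 CPM in SOX9-Halo_spheroid. No spheroid library of either line reached the lowest budding library, and the change was -6.48 ± 0.49, adjusted p = 9.3e-08 in the SOX9-Halo line and -2.09 ± 0.4, adjusted p = 0.001 in the SOX9-mEGFP line. Gsta13 (chr9:78164411-78176451), named after its values were seen, gave -6.38 and -2.17 (adjusted p = 2.7e-06 and 0.0087). Their coding sequences differed at 2 of 669 bases, and reads matching both copies were not counted. The first 90 coding bases, read 5′ to 3′ from GRCm39 with GENCODE M39 transcripts, show this likeness, and capitals mark bases that differ between the genes:
Gsta1: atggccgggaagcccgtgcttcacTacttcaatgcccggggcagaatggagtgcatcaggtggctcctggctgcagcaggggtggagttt
Gsta13: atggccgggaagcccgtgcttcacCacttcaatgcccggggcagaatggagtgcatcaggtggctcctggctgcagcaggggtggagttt

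Gsta2, 98.0% identical to Gsta1, was called lower in both lines (-3.22 and -2.97, adjusted p = 0.0001 and 0.00034). Gsta4 (chr9:78090056-78117763), which clears reactive aldehydes of lipid peroxidation, had the highest level per kilobase of exon of the alpha genes in SOX9-mEGFP_spheroid and SOX9-Halo_spheroid, 324 and 166 CPM per kilobase. Its level was 1351, 1247 and 1210 CPM in Halo-NLS, 988, 935 and 636 CPM in SOX9-mEGFP_budding, 888, 842 and 802 CPM in SOX9-Halo_budding, 1040, 874 and 753 CPM in SOX9-mEGFP_spheroid and 604, 405 and 357 CPM in SOX9-Halo_spheroid. SOX9-Halo_spheroid was below SOX9-Halo_budding in all libraries, but the change stayed under the fold threshold (-0.89 ± 0.22, adjusted p = 0.0046), and spheroids and budding organoids of the SOX9-mEGFP line overlapped (0.06 ± 0.22, adjusted p = 0.89). Gsta3, at 196 to 609 CPM over the 15 libraries, was not called in either line (0.66 and 0.72).

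The pi and omega classes lie on chromosome 19. Pi class enzymes detoxify electrophiles in the cytosol of many epithelia, and omega class enzymes reduce substrates such as dehydroascorbate. Gstp1 (chr19:4085405-4088068) and Gstp2 (chr19:4090285-4096023) differed at 12 of 630 coding bases, whereas Gstp3 (chr19:4106035-4109569) was 72.5% identical to Gstp1. Over whole transcripts, 17.1% of the 150-base windows of Gstp1 and 36.9% of those of Gstp2 also occurred in another gene. The first 90 coding bases of Gstp1 and Gstp2 held 6 of the 12 differences, given in capitals:
Gstp1: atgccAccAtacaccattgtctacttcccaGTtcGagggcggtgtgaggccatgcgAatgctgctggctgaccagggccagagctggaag
Gstp2: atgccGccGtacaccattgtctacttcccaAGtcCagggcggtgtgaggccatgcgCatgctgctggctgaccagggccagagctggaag

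The 3 Gstp genes gave 3 patterns. The level of Gstp1 was 724, 821 and 969.6 CPM in Halo-NLS, 481, 518 and 455 CPM in SOX9-mEGFP_budding, 357, 386 and 326 CPM in SOX9-Halo_budding, 465, 492 and 491 CPM in SOX9-mEGFP_spheroid and 653, 530.3 and 452 CPM in SOX9-Halo_spheroid. It was highest in Halo-NLS, and its change from budding to spheroid was not called in either line (0.61 ± 0.18, adjusted p = 0.011 and -0.01 ± 0.17, adjusted p = 0.99 in the SOX9-Halo and SOX9-mEGFP lines). The level of Gstp2 was 428, 518 and 488 CPM in Halo-NLS, 130.2, 137 and 117 CPM in SOX9-mEGFP_budding, 125, 147 and 140 CPM in SOX9-Halo_budding, 88.1, 86.0 and 85.5 CPM in SOX9-mEGFP_spheroid and 374, 291 and 277 CPM in SOX9-Halo_spheroid. Its libraries fell into separate ranges, with SOX9-mEGFP_spheroid lowest, both budding SOX9 lines next, SOX9-Halo_spheroid above them and Halo-NLS highest. Gstp2 rose from budding to spheroid in the SOX9-Halo line (1.19 ± 0.16, adjusted p = 3e-05) and did not pass in the SOX9-mEGFP line (-0.57 ± 0.16, adjusted p = 0.016). The level of Gstp3, named after its values were seen, was 119, 115 and 93.0 CPM in Halo-NLS, 56.4, 60.1 and 42.5 CPM in SOX9-mEGFP_budding, 49.9, 60.0 and 30.4 CPM in SOX9-Halo_budding, 102, 97.9 and 98.2 CPM in SOX9-mEGFP_spheroid and 3.85, 0.705 and 0.536 CPM in SOX9-Halo_spheroid. It fell to under 4 CPM in SOX9-Halo_spheroid (-4.81 ± 0.58, adjusted p = 7.5e-06), while the SOX9-mEGFP_spheroid libraries lay above the SOX9-mEGFP_budding libraries without a call (0.91 ± 0.48, adjusted p = 0.19).

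Gsto1 (chr19:47842686-47853229) had the highest level per kilobase of exon of the members in SOX9-Halo_spheroid, 364 CPM per kilobase, ahead of Gstp1 with 334 and Gstp2 with 263. Its level was 513, 505 and 788 CPM in Halo-NLS, 361, 398 and 486 CPM in SOX9-mEGFP_budding, 362, 286 and 348 CPM in SOX9-Halo_budding, 458, 447 and 456 CPM in SOX9-mEGFP_spheroid and 1458, 1145 and 1263 CPM in SOX9-Halo_spheroid. The SOX9-Halo_spheroid libraries lay above all others, and the SOX9-mEGFP_spheroid libraries lay within the range of SOX9-mEGFP_budding. It rose in the SOX9-Halo line (1.96 ± 0.21, adjusted p = 2.3e-06) and was not called in the SOX9-mEGFP line (0.13 ± 0.2, adjusted p = 0.71). The adjacent Gsto2 (chr19:47853943-47874763) was at 0.204 to 5.01 CPM and is named after its values were seen. It was the only member called higher in both lines (3.42 and 1.64, adjusted p = 1.8e-06 and 0.0029). That is 1.75% of the tested members, against 6.08% of all tested genes. As on chromosome 8, the median over chromosome 19 was away from 0. The median of its 651 other tested genes was 0.46 in the SOX9-Halo line and -0.44 in the SOX9-mEGFP line from budding to spheroid, and -0.61 between SOX9-Halo_budding and Halo-NLS. Relative to that median, the change of Gstp2 in the SOX9-Halo line was 0.73 and thus under the fold threshold. The part of the chromosome in these results was not tested.

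**Figure D4:**
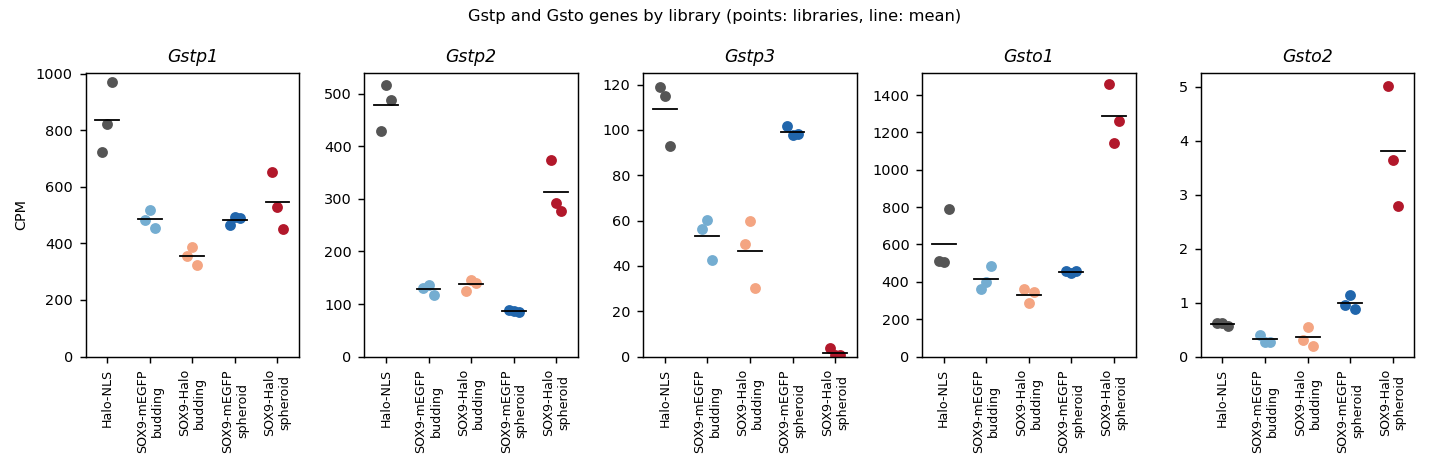
CPM (vertical axes from 0, each panel with its own scale) of the pi and omega class genes on chromosome 19 in the 15 libraries (points) with the mean of each condition (line). In SOX9-Halo_spheroid Gstp3 is at 0.536 to 3.85 CPM, whereas Gsto1 is at 1145 to 1458 CPM.

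Of the other Gst genes, the theta class gene Gstt2 was called lower in the SOX9-Halo line (-3.81, adjusted p = 4.5e-07), and Gstt1, Gstt3, the mitochondrial and peroxisomal Gstk1 and the tyrosine catabolism enzyme Gstz1 were not called in either line. Gstz1 spanned 25.8 to 61.5 CPM over the 15 libraries.

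UDP-glucuronosyltransferases conjugate bilirubin, steroids, bile acids and phenols. Ugt2b34 (chr5:87037626-87054814) lies in a cluster of Ugt2 genes on chromosome 5. Its level was 1186, 638 and 240.3 CPM in Halo-NLS, 923, 778 and 434 CPM in SOX9-mEGFP_budding, 751, 435 and 564 CPM in SOX9-Halo_budding, 476, 457 and 262 CPM in SOX9-mEGFP_spheroid and 18.8, 6.09 and 7.99 CPM in SOX9-Halo_spheroid. SOX9-Halo_spheroid libraries were at under 19 CPM, whereas SOX9-mEGFP_spheroid libraries overlapped with SOX9-mEGFP_budding. The change was -5.74 ± 0.62, adjusted p = 2.7e-06 in the SOX9-Halo line and -0.84 ± 0.51, adjusted p = 0.26 in the SOX9-mEGFP line, where it was not called. Ugt2b35 (chr5:87148701-87161742) had the same split, with -6.59 in the SOX9-Halo line (adjusted p = 4.7e-07) and -0.71 in the SOX9-mEGFP line (adjusted p = 0.3). Other genes of the same cluster were called lower in both lines. The level of Ugt2a3 (chr5:87472734-87485055) was 85.6, 58.9 and 37.7 CPM in Halo-NLS, 58.2, 75.2 and 29.8 CPM in SOX9-mEGFP_budding, 136, 63.3 and 114 CPM in SOX9-Halo_budding, 8.52, 5.49 and 2.55 CPM in SOX9-mEGFP_spheroid and 0.318, 0.113 and 0.215 CPM in SOX9-Halo_spheroid. Its spheroid libraries lay below the budding libraries in both lines (-8.93 ± 0.66, adjusted p = 7.4e-08 and -3.30 ± 0.49, adjusted p = 0.00011 in the SOX9-Halo and SOX9-mEGFP lines). Ugt2b5 changed by -10.04 and -4.27 (adjusted p = 3.3e-06 and 0.00059). The first value rests on 4 counts in SOX9-Halo_spheroid, all in replicate 3, and was -13.58 without that library. Ugt2b36, 88.4% identical to Ugt2b5 in coding sequence, had at most 3 counts in each SOX9-Halo_spheroid library and was at least 264-fold lower there than in SOX9-Halo_budding, and its change in the SOX9-mEGFP line was -3.25 ± 0.43, adjusted p = 4.2e-05.

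In the Ugt1a locus on chromosome 1, where alternative first exons are joined to common ones, Ugt1a7c lies at chr1:88022726-88147724. Its level was 252, 335 and 197 CPM in Halo-NLS, 331, 281 and 141 CPM in SOX9-mEGFP_budding, 249, 304 and 228 CPM in SOX9-Halo_budding, 115, 80.4 and 66.4 CPM in SOX9-mEGFP_spheroid and 2.19, 2.17 and 7.03 CPM in SOX9-Halo_spheroid. In both lines the spheroid libraries lay below the budding ones, and the change was called in the SOX9-Halo line (-6.09 ± 0.52, adjusted p = 2.4e-07) but not in the SOX9-mEGFP line (-1.52 ± 0.42, adjusted p = 0.013). The bilirubin-conjugating Ugt1a1 was called lower in both (-4.84 and -3.23, adjusted p = 6.4e-07 and 3.1e-05), and so were Ugt1a6a (-3.59 and -2.10) and Ugt1a9, which had no count in SOX9-Halo_spheroid and was at least 51.2-fold lower there. Ugt1a6b, at 0.592 to 1.34 CPM in SOX9-Halo_spheroid and at most 0.225 CPM in every other library, was called higher in the SOX9-Halo line (3.03, adjusted p = 0.00013). Both names rest on the few exons that are not shared.

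Ugt8a (chr3:125654459-125732736), which makes galactosylceramide and belongs to lipid rather than drug metabolism, had another pattern. Its level was 0, 0.0342 and 0.0375 CPM in Halo-NLS, 0.543, 0.402 and 0.603 CPM in SOX9-mEGFP_budding, 0.474, 0.116 and 2.01 CPM in SOX9-Halo_budding, 9.63, 12.8 and 12.2 CPM in SOX9-mEGFP_spheroid and 1.59, 1.38 and 0.671 CPM in SOX9-Halo_spheroid. It was near 0 in Halo-NLS, and the SOX9-mEGFP_spheroid libraries lay above all others. Its rise from budding to spheroid was called in the SOX9-mEGFP line (4.47 ± 0.68, adjusted p = 0.00015) and not in the SOX9-Halo line (0.49 ± 0.63, adjusted p = 0.58). Without SOX9-Halo_budding replicate 3, the change in the SOX9-Halo line was 2.0 and was called (adjusted p = 0.0074).

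Sulfotransferases act on phenols, catecholamines, thyroid hormones and sterols. The level of Sult1d1 (chr5:87702504-87716933) was 281, 149 and 134 CPM in Halo-NLS, 264, 254 and 65.1 CPM in SOX9-mEGFP_budding, 209.9, 121 and 109 CPM in SOX9-Halo_budding, 129, 147 and 47.8 CPM in SOX9-mEGFP_spheroid and 3.32, 1.64 and 1.48 CPM in SOX9-Halo_spheroid. Its values in SOX9-Halo_spheroid were under 4 CPM, and those in SOX9-mEGFP_spheroid overlapped with SOX9-mEGFP_budding (-6.11 ± 0.65, adjusted p = 2.4e-06 and -0.85 ± 0.52, adjusted p = 0.27 in the SOX9-Halo and SOX9-mEGFP lines). Sult1b1 (chr5:87661191-87686072), beside it on chromosome 5, changed by -7.84 in the SOX9-Halo line (adjusted p = 7.8e-07) and by -1.73 in the SOX9-mEGFP line (adjusted p = 0.028, not called). Sult2b1, which sulfonates cholesterol, changed by -3.12 (adjusted p = 6.6e-07) and -0.69 (adjusted p = 0.073, not called). Sult6b2 was at least 211-fold lower in SOX9-Halo_spheroid than in SOX9-Halo_budding and changed by -3.37 in the SOX9-mEGFP line (adjusted p = 5.3e-05).

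Sult1c2 (chr17:54136151-54153418) was not among the genes called lower. Its level was 92.6, 56.3 and 25.4 CPM in Halo-NLS, 107, 65.4 and 26.4 CPM in SOX9-mEGFP_budding, 77.2, 80.5 and 32.5 CPM in SOX9-Halo_budding, 236, 238 and 181 CPM in SOX9-mEGFP_spheroid and 150.4, 79.3 and 69.0 CPM in SOX9-Halo_spheroid. The SOX9-mEGFP_spheroid libraries were the highest of the 15, and SOX9-Halo_spheroid overlapped with SOX9-Halo_budding. Neither change passed the threshold (0.65 ± 0.51, adjusted p = 0.34 in the SOX9-Halo line and 1.72 ± 0.52, adjusted p = 0.022 in the SOX9-mEGFP line). The phenol sulfotransferase Sult1a1, at most 2.15 CPM in any library, was called higher in the SOX9-mEGFP line (2.71, adjusted p = 0.0011) and not in the SOX9-Halo line (1.61, adjusted p = 0.028); it is named after its values were seen.

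The next question was whether the 2 lines differed in how far these genes changed. Of the 57 members, 21 were called lower in both lines (36.8%, against 6.72% of all tested genes), which is 60% of those called lower in the SOX9-Halo line and 100% of those in the SOX9-mEGFP line (45.7% and 85.3% over all tested genes). Of these 21, 20 had the larger fall in the SOX9-Halo line, Ces1e being the exception, as had 83.1% of all genes called lower in both. A further 14 were called lower in the SOX9-Halo line alone (24.6%, against 8% of all tested genes), among them Ugt2b34, Ugt2b35, Ugt1a7c, Sult1d1, Sult1b1, Sult2b1 and Gstp3. In fits leaving out 1 library, the fall in the SOX9-mEGFP line was also called for Gstm1 (4 fits), Ugt1a7c (3 fits) and Sult1b1 (1 fit). Gstm2, Gsto1, Gstp2 and Ugt1a6b were called higher in the SOX9-Halo line alone, and Sult1a1 and Ugt8a in the SOX9-mEGFP line alone, although Ugt8a was called in both without SOX9-Halo_budding replicate 3. Such calls in the SOX9-Halo line alone made up 4.46% of all tested genes and those in the SOX9-mEGFP line alone 2.47%. No member was called in opposite directions in the 2 lines, against 0.302% of all tested genes. Another 15 members (26.3%) were called in neither line, against 71.4% of all tested genes. The study placed the conditions in order of time in culture, with SOX9-mEGFP_spheroid before SOX9-Halo_spheroid, and their additional transgenes differed, so that the line cannot be told apart from time in culture, the stage of the spheroids and these transgenes. Calls in a single line do not show a difference, so the difference of the changes was tested as an interaction in the same model. It was called for 21 members with a lower value in the SOX9-Halo line and for 2 with a higher one, against 5.58% and 1.81% of all tested genes, and the median difference was -2.43 for the members and -0.0825 for all genes. The called members were 7 of 13 Ugt, 5 of 7 Sult, 6 of 23 Gst and 3 of 14 Ces genes with a lower value, and Gsto1 and Gstp2 with a higher one. Ces2a (-7.85 ± 0.7, adjusted p = 3e-06) and Ces2c (-7.11 ± 0.73, adjusted p = 1.1e-05) had the smallest p-values among those with a lower value. For Gsto1 and Gstp2, the differences were 1.83 ± 0.29, adjusted p = 0.00048 and 1.76 ± 0.23, adjusted p = 9.7e-05, and relative to the median of chromosome 19 (0.879) they were 0.95 and 0.88, both under the fold threshold, so that neither call held.

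**Figure D5:**
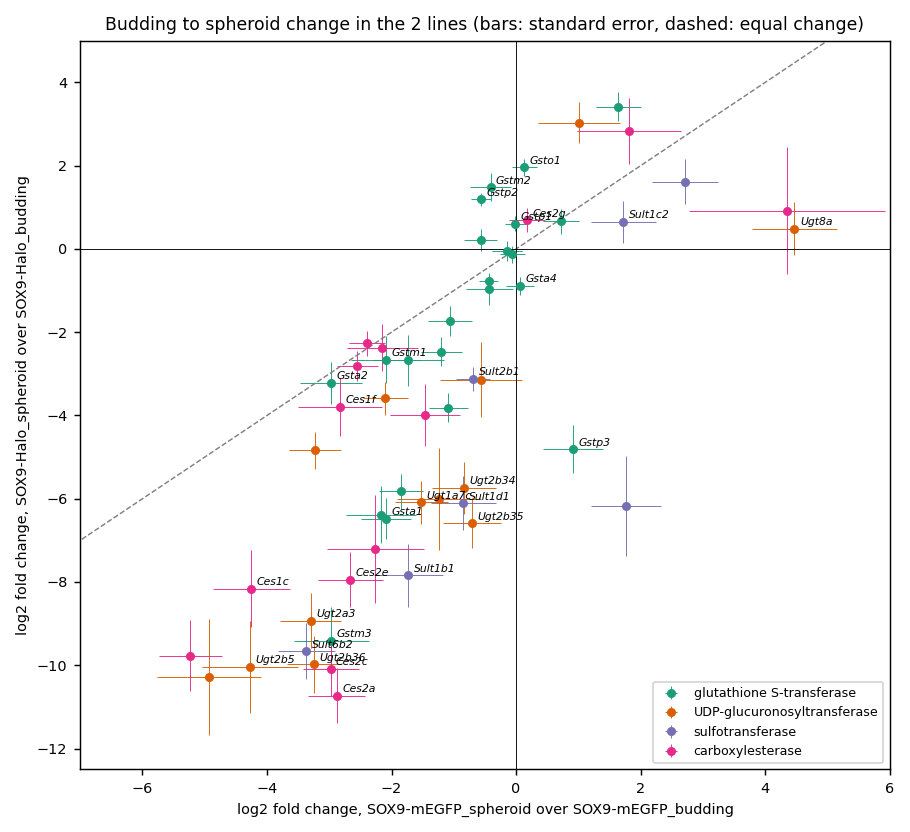
Log2 fold change from budding to spheroid of the 57 tested members in the SOX9-mEGFP line (horizontal axis) and the SOX9-Halo line (vertical axis), coloured by family, with standard errors and a dashed line of equal change. Most points lie below the dashed line, as 46 of 57 (80.7%, against 54.5% of all tested genes) had the larger fall or smaller rise in the SOX9-Halo line, and fitted values of members with almost no counts, such as Sult6b2, are no bounds.

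Few members were called between the budding organoids of the SOX9 lines and Halo-NLS. The median log2 fold change against Halo-NLS over the 23 tested Gst genes was -0.75 in SOX9-Halo_budding and -0.8 in SOX9-mEGFP_budding, with 0.00944 and 0.034 for all genes. At an unadjusted p under 0.05, 13 and 14 of the 23 Gst genes were lower, against 17% and 15.4% of all tested genes, and 0 were higher, against 20.5% and 19%. DESeq2 called 4 and 3 Gst genes lower, against 2.63% and 1.67% of all tested genes, and 0 higher, against 6.83% and 5.35%. In SOX9-Halo_budding, Gstm2, Gstp1 and Gstp2 were called lower and Ugt8a higher, which is 3 and 1 of 57 members against 1.26% and 2.49% of all tested genes. In SOX9-mEGFP_budding, Gstm2 and Gstp2 were called lower, against 0.763% of all tested genes, and 0 members higher, against 1.99%. With only the Halo-NLS and SOX9-Halo_budding libraries in the fit, edgeR's quasi-likelihood test called 0 members higher and 0 lower, against 0.0328% and 0% of all genes tested, so that all 4 calls in SOX9-Halo_budding were lost (adjusted p = 0.013 for Gstp2). At an unadjusted p under 0.05, 0 members were higher and 15 lower in that fit, against 13.7% and 11% of all genes. The corresponding fit for SOX9-mEGFP_budding called 1 member lower, Gstp2, against 0.253% of all genes. In the fit of all libraries, 2 members were higher and 16 lower in SOX9-mEGFP_budding at an unadjusted p under 0.05 (all tested genes 19% and 15.4%), and DESeq2 called 1 higher and 4 lower (all tested genes 5.35% and 1.67%). Without Halo-NLS replicate 3, the counts were 3 lower and 0 higher for SOX9-Halo_budding (all genes tested in that fit 0.555% and 1.03%) and 1 lower for SOX9-mEGFP_budding (0.456%), and without SOX9-mEGFP_budding replicate 3 the latter was also 1 (0.414%). Gstp2 changed by -1.80 ± 0.17, adjusted p = 3.3e-05 in SOX9-Halo_budding and by -1.90 ± 0.17, adjusted p = 1.1e-05 in SOX9-mEGFP_budding, and all 6 libraries were below the 3 Halo-NLS libraries. Gstm2 changed by -1.69 ± 0.34, adjusted p = 0.0067 and -1.64 ± 0.34, adjusted p = 0.0086 in the same order, calls that were lost in 9 and 11 of the 15 fits leaving out 1 library. Gstp1 changed by -1.23 ± 0.18, adjusted p = 0.00092 in SOX9-Halo_budding. Relative to the median of chromosome 19 its change was -0.62, under the fold threshold, so that its call did not hold. Ugt8a had at most 3 counts in each Halo-NLS library and was at least 7.82-fold higher in SOX9-Halo_budding (adjusted p = 0.009). This bound was 2.67-fold without SOX9-Halo_budding replicate 3, which had 2.01 CPM against 0.474 and 0.116 CPM, and the call was kept in 2 of the 15 fits leaving out 1 library, those without SOX9-mEGFP_budding replicate 3 or SOX9-Halo_budding replicate 2. Gstm1 and Gstm3, with log2 fold changes from -1.55 to -1.28 in the 2 budding lines, were not called, and their values in Halo-NLS replicate 3 lay within the range of the budding SOX9 libraries.

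Between the 2 budding SOX9 lines, edgeR's quasi-likelihood test called 0 members in either direction, against 0.29% of all tested genes higher and 0.165% lower in SOX9-Halo_budding. At an unadjusted p under 0.05, 3 members were higher and 3 lower (all tested genes 3.3% and 5.07%), and DESeq2 called 1 in each direction (all tested genes 0.598% and 0.638%). The spheroids of the lines differed more, with 25 members called lower and 5 called higher in SOX9-Halo_spheroid than in SOX9-mEGFP_spheroid, against 9.58% and 3.59% of all tested genes. The 5 higher ones were Gstm2, Gsto1, Gsto2, Gstp2 and Ugt1a6b. Relative to the median of chromosome 19 in this comparison (0.556), Gsto1 was at 0.95, under the fold threshold, so that its call did not hold, whereas Gstp2 was at 1.3. Set against Halo-NLS, 38 members were called lower and 6 higher in SOX9-Halo_spheroid (all tested genes 15.3% and 13.6%), and 29 lower and 3 higher in SOX9-mEGFP_spheroid (12.1% and 15.3%). In the latter comparison Ugt8a was at least 104-fold higher, and Sult1c2 was called higher (1.91 ± 0.53, adjusted p = 0.008), a call lost in 9 of the 15 fits leaving out 1 library. The 2 comparisons with Halo-NLS share its libraries, and each spheroid condition enters several comparisons, so that the counts are not independent of one another.

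Genes that supply and follow conjugation are given here from budding organoid to spheroid, a step in which the SOX9-Halo line had 10.5% of all tested genes called higher and 14.7% called lower, and the SOX9-mEGFP line 8.55% and 7.88%. Among 14 genes for cofactor supply, the SOX9-Halo spheroids had 3 calls upward and 3 downward and the SOX9-mEGFP spheroids 1 upward, with medians of -0.42 and 0.04. Gpx2, a glutathione peroxidase, was called higher in the SOX9-Halo line (1.68 ± 0.39, adjusted p = 0.0028), and Bpnt1, which removes the by-product of sulfonation, was called lower (-2.11 ± 0.24, adjusted p = 4.4e-06). Gsr, which regenerates reduced glutathione, was not called in either line (-0.14 and -0.38). Chosen after their values were seen, Gclc, the catalytic subunit for glutathione synthesis, rose in both lines (1.73 and 1.32), whereas Ugdh, which makes UDP-glucuronic acid, and Papss2, which makes the sulfate donor, fell in the SOX9-Halo line (-1.78 and -1.41). Of 17 tested genes of other conjugating and hydrolysing enzymes, 7 were called lower and 1 higher in the SOX9-Halo line, and 3 lower and 1 higher in the SOX9-mEGFP line. The microsomal Mgst3 fell in both (-1.95 and -1.40), Mgst1 in the SOX9-mEGFP line (-1.26, against -0.96 without a call in the SOX9-Halo line), and the epoxide hydrolase Ephx1 was not called (0.69 and -0.07).

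Of 16 genes for export and further processing of conjugates, 7 were called lower and 3 higher in the SOX9-Halo line, and 6 lower and 3 higher in the SOX9-mEGFP line. The apical exporters Abcc2 and Abcb1a fell in both lines. Abcc2 changed by -9.50 ± 0.64, adjusted p = 3e-08 in the SOX9-Halo line and -2.36 ± 0.45, adjusted p = 0.001 in the SOX9-mEGFP line, and Abcb1a by -9.54 and -2.53. Abcc3, a basolateral exporter, was not called (0.80 and 1.48), and the 3 genes called higher in both lines, named after their values were seen, were Abcc1, Abcc4 and Abcb1b. Of 18 tested regulators of such genes, 8 were called lower and 2 higher in the SOX9-Halo line, and 6 lower and 1 higher in the SOX9-mEGFP line. Hnf4a, a factor of intestinal and liver differentiation, fell in the SOX9-Halo line (-4.36 ± 0.27, adjusted p = 1.6e-08) and stayed under the fold threshold in the SOX9-mEGFP line (-0.96 ± 0.24, adjusted p = 0.0069). Cdx2 fell in both (-6.78 and -1.94), and Nfe2l2, the regulator of the antioxidant response, was not called (0.32 and -0.45). The xenobiotic receptors Nr1i2 and Ahr, named after their values were seen, went in opposite directions, Nr1i2 falling (-8.64 and -1.85) and Ahr rising (1.45 and 1.72) in the SOX9-Halo and SOX9-mEGFP lines.

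Enterocyte and enteroendocrine markers were mostly called lower in spheroids of both lines, whereas goblet and Paneth markers fell in the SOX9-Halo line and differed among themselves or were not called in the SOX9-mEGFP line. The summed level of 10 enterocyte markers, led by Fabp1 in budding organoids, was 10848 ± 2964 CPM in Halo-NLS, 6530 ± 3876 CPM in SOX9-mEGFP_budding, 7534 ± 2487 CPM in SOX9-Halo_budding, 624 ± 302 CPM in SOX9-mEGFP_spheroid and 12.1 ± 3.23 CPM in SOX9-Halo_spheroid. All 10 were called lower in the SOX9-Halo line and 8 in the SOX9-mEGFP line. The order of these sums among the spheroids, SOX9-mEGFP above SOX9-Halo, was that of the Ugt, Sult and Ces sums. The 6 goblet markers, led by Fcgbp, summed to 4019 ± 3650 CPM in SOX9-Halo_budding (1917 CPM without replicate 2) and 20.2 ± 3.06 CPM in SOX9-Halo_spheroid, all 6 called lower, against 6536 ± 2981 and 2795 ± 718 CPM in the SOX9-mEGFP line, where edgeR's quasi-likelihood test called 0 of them, DESeq2 called 1 lower, and 2 were lower at an unadjusted p under 0.05 (all tested genes 9.28% and 18.4%). The 5 Paneth markers summed to 760.5 and 4.22 CPM in the SOX9-Halo line (5 called lower) and to 1378 and 1266 CPM in the SOX9-mEGFP line, where 4 were called lower and Mmp7, at 1246 CPM in the spheroids, higher. The 5 enteroendocrine markers were called lower in both lines, with sums of 0.327 CPM in SOX9-Halo_spheroid and 1.59 CPM in SOX9-mEGFP_spheroid and with Pyy and Gcg at no more than 3 counts per library in both. The 4 tuft markers summed to 2.40 to 11.4 CPM over the condition means, and 2 were called lower in each line.

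The 4 crypt base stem cell markers, led by Smoc2 in budding organoids, summed to 380.2 and 26.4 CPM in SOX9-Halo_budding and SOX9-Halo_spheroid and to 436 (191 without replicate 3) and 59.5 CPM in SOX9-mEGFP_budding and SOX9-mEGFP_spheroid (3 and 2 called lower). The 5 fetal-like markers, led by Clu, were called higher in both lines, from 38.4 (22.1 without SOX9-Halo_budding replicate 3) to 3490 CPM in the SOX9-Halo line and from 41.3 to 6077 CPM in the SOX9-mEGFP line. Of the 5 epithelial markers, SOX9-Halo spheroids had 1 call upward and 2 downward, and SOX9-mEGFP spheroids 1 upward. Markers of cells outside the epithelium were low, with condition means of the sums of at most 0.821 CPM for 5 fibroblast markers and 0.846 CPM for 3 endothelial markers. The fibroblast value was that of SOX9-Halo_spheroid, which was 0.5085 CPM without its replicate 1. The 4 immune markers, mostly Cd68, summed to 1.53 and 5.15 CPM in SOX9-Halo_budding and SOX9-Halo_spheroid and to 1.59 and 8.17 CPM in SOX9-mEGFP_budding and SOX9-mEGFP_spheroid. Of the 2 immune markers tested, Cd68 was called higher in both lines and Csf1r in the SOX9-mEGFP line. Of the 5 hepatocyte markers Ttr alone exceeded 1 CPM, at 34.9 CPM in SOX9-mEGFP_spheroid and 1.46 CPM in SOX9-Halo_spheroid, and Serpina1a and Tat had no more than 3 counts per library in all conditions. Of the 57 tested members, 35 were called lower in SOX9-Halo_spheroid than in SOX9-Halo_budding, as were all 10 enterocyte markers. Another 5 members were called higher, among them Gsto1, Gstm2 and Gstp2. These shares compare with 14.7% lower and 10.5% higher among all tested genes. The change of Gstp2 was under the fold threshold relative to the median of its chromosome, and Ces2g had a higher mean without a call. The part of the enterocyte and other markers in the results on the enzymes was not tested.

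Promoter sequence, taken from GRCm39 as the 250 bases before the start of the annotated canonical transcript, held few matches to the motifs searched on both strands. The core of the antioxidant response element, TGACNNNGC, occurred in the promoters of Gsta3 and Gstm5 alone, 2 of 86 members (2.33%), against 9.69% of 21770 promoters. Both genes are shown because they are the members with a match, neither was called in either line, and the match is in capitals:
Gsta3 chr1:21310662-21310721, plus strand: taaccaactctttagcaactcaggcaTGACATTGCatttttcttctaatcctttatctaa
Gstm5 chr3:107803102-107803136, plus strand: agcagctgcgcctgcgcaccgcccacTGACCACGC

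The xenobiotic response core GCGTG was found in 10.5% of the members and 31.2% of all promoters, the CDX motif TTTATNG in 12.8% and 9.57%, and the SOX motif ACAATGG in 3.49% and 2.52%. The HNF4 motif CAAAGTCCA and the palindromic HNF1 motif were in 0 of the 86 promoters and in 0.372% and 0.00459% of all. A match describes letters in this window and is not a site of binding.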

How the data were processed

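RNA of 15 organoid libraries was sequenced as 150-base read pairs after poly-A selection. The authors trimmed reads with cutadapt (4.5 per the labels), aligned them with STAR to mm39, and deposited unstranded HTSeq (2.0.2) counts of uniquely aligned pairs per gene. Without strand, overlapping and antisense genes cannot be separated, and near-identical copies lose reads. Entries for reads on no gene (1.83% to 6.09% of a library) or on several genes (9.65% to 13.6%) were left out of library sizes and tests. Depth was 28062722 to 40559766 counts per library. Floors of 3 counts cover counting error only.

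From these counts, TMM factors and a quasi-likelihood fit over all 15 libraries with 1 coefficient per condition were computed in edgeR 4.0.16 (R 4.3.3), after edgeR's filter on low counts, which kept 17560 genes. Adjusted p-values in the report come from that fit unless another fit is named beside them. Each was adjusted over all genes of its fit by Benjamini-Hochberg. The line difference was an interaction contrast, and ± after a fold change is its SE. Genes with at most 3 counts in every library of a condition have a fold given as a bound against 3 counts per library. Sequences were read from GRCm39 with GENCODE M39. The script was tested on simulated data. True log2 changes of -2 and 2 were recovered for 95% and 92.5% of genes between spheroid and budding in the SOX9-Halo line. In the line difference, 25% were recovered for each, so members without a call there may still differ between the lines. Alternatives were DESeq2 1.42.0, other scaling, filters and thresholds, a replicate block and leaving out each library. Members and gene lists were chosen with earlier results of these data known. Named genes were the 4 with the highest counts per family, the 2 largest rises and falls with mean normalized counts of at least 100 for each within-line comparison, members called in budding organoids against Halo-NLS, the 3 smallest p-values per direction of the line difference, and the 3 most abundant genes of each pathway list. Every other member or pathway gene was named after its values were seen, to account for the rest of its family or list. The replicate numbers of SOX9-Halo_budding and SOX9-Halo_spheroid deviated together (correlation 0.278 to 0.471), which is a hint from the data. In no other pair of conditions were all 3 correlations over 0.1, though single ones were high. They ran from -0.197 to 0.848 between Halo-NLS and SOX9-Halo_budding and from 0.00441 to 0.758 between the budding SOX9 lines.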

Additional observations from a re-analysis of the deposited data

Results flagged for a closer look

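The interaction term of edgeR's quasi-likelihood fit was called for 23 members in the step from budding organoid to spheroid. It was lower in the SOX9-Halo line for 21 of them and higher for 2, against 5.58% and 1.81% of all tested genes. The values below are the log2 fold change in the SOX9-Halo line minus that in the SOX9-mEGFP line. Among Ugt genes the difference was -4.57 for Ugt1a7c, -5.64 for Ugt2a3, -4.90 for Ugt2b34, -5.88 for Ugt2b35, -6.73 for Ugt2b36, -5.76 for Ugt2b5 and -3.98 for Ugt8a. Among Sult genes it was -6.11 for Sult1b1, -5.25 for Sult1d1, -2.43 for Sult2b1, -7.94 for Sult4a1 and -6.29 for Sult6b2. The Ces genes were Ces2a with -7.85, Ces2c with -7.11 and Ces2e with -5.28. Among Gst genes it was -4.39 for Gsta1, -4.21 for Gsta13, -6.44 for Gstm3, -3.97 for Gstm6, -5.72 for Gstp3, -2.72 for Gstt2, 1.83 for Gsto1 and 1.76 for Gstp2. Relative to the median of chromosome 19, the differences of Gsto1 and Gstp2 were 0.95 and 0.88, under the fold threshold, and neither call held. Those outside the naming rule (Gsta13, Gstm6, Gstp3, Gstt2 and Sult4a1) are named because of this result. The additional transgene and the time in culture of the spheroids also differed between the lines and cannot be told apart from the line. Ugt2b36, Sult4a1 and Sult6b2 had at most 3 counts in each SOX9-Halo_spheroid library, so that their fitted values depend on the prior count and are no bounds. The calls of Ugt2b5 and of Ugt8a were each lost in 11 of the 15 fits leaving out 1 library, in which the difference stayed between -9.27 and -5.11 for Ugt2b5 and between -4.21 and -2.49 for Ugt8a.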

How the results depend on the processing

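Of 5372 values of single genes under an alternative, 5205 kept their direction and side of the threshold, 112 lost the call, 55 gained it and 0 reversed. Percentages in brackets are the shares of all genes tested in the same fit. Without a low-count filter, 7 members were called lower in SOX9-Halo_budding (0.801%) and 8 lower (0.493%) and 1 higher (3.27%) in SOX9-mEGFP_budding than in Halo-NLS, and 3 higher in SOX9-Halo_budding than in SOX9-mEGFP_budding (0.219%). DESeq2 called 4 lower (1.67%) and 1 higher (5.35%) in SOX9-mEGFP_budding than in Halo-NLS, and 1 in each direction between the budding lines (0.598% higher and 0.638% lower). With only the libraries compared in the fit, the counts were 0 higher (0.0328%) and 0 lower (0%) for SOX9-Halo_budding and 1 lower (0.253%) for SOX9-mEGFP_budding against Halo-NLS. With a fold change of at least 4, 0 members were lower in SOX9-Halo_budding (0.262%) or SOX9-mEGFP_budding (0.387%) than in Halo-NLS, 2 were higher in SOX9-Halo_spheroid than in SOX9-Halo_budding (6.33%), 1 higher than in SOX9-mEGFP_spheroid (1.82%), and 0 had a higher line difference (1.18%). The cause of these shifts was not tested, except that a stricter fold leaves fewer calls.

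Leaving out 1 library gave 0 to 1 members higher in SOX9-Halo_budding (0.684% to 10.8%) and in SOX9-mEGFP_budding (0.782% to 10%) than in Halo-NLS, 1 to 2 lower in SOX9-mEGFP_budding than in Halo-NLS (0.392% to 1.88%), 3 to 6 higher in SOX9-Halo_spheroid than in SOX9-Halo_budding (8.62% to 10.8%, 3 without SOX9-Halo_spheroid replicate 1), 3 to 6 higher in SOX9-Halo_spheroid than in Halo-NLS (10.8% to 17.2%, 3 without Halo-NLS replicate 2 or SOX9-Halo_spheroid replicate 1), 0 to 1 higher in SOX9-Halo_budding than in SOX9-mEGFP_budding (0.196% to 0.323%, 1 without SOX9-Halo_budding replicate 2) and 2 to 4 with a higher line difference (0.984% to 2%, 4 without SOX9-Halo_budding replicate 2). The fall from budding to spheroid was called for 34 to 38 members in the SOX9-Halo line (12.4% to 14.5%) and 18 to 28 in the SOX9-mEGFP line (5.5% to 8.11%). Scaling by library size alone moved the median of all genes by 0.235 to 0.299 in comparisons with Halo-NLS, and the call of Gstp1 in SOX9-Halo_budding was then lost (-0.94).

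With the replicate number as a block, 0 members were called higher (3.25%) and 3 lower (1.74%) in SOX9-Halo_budding than in Halo-NLS, so the call of Ugt8a was lost, and 36 were called lower (15.2%) and 6 higher (11.2%) from budding to spheroid in the SOX9-Halo line. Of 30 pairs of samples with the same number, 17 correlated above 0.1. A block within the SOX9-Halo line alone, chosen after seeing the data, gave 35 lower (14.3%) and 6 higher (10.7%).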
